A study of Homo sapiens with 6 samples.

Results

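The antioxidant and iron-handling genes described here are 36 named genes of the NRF2, glutathione, thioredoxin and ferritin systems, taken by symbol from a table of 56638 gene names. They were measured by mRNA sequencing in 6 libraries of HL60, a promyelocytic cell line from a human acute myeloid leukaemia, all grown in RPMI with 10% fetal calf serum. Libraries 1 to 3 of the SKI knockout carried a CRISPR/Cas9 deletion of SKI, a co-repressor gene of the TGF-beta pathway, and came from the line numbered 3. Libraries 1 to 3 of the control came from a CRISPR/Cas9 control line numbered 1, so each genotype was represented by 1 line, and a difference of genotype and a difference between lines cannot be told apart. The labels do not say whether replicates were separate cultures, so a p-value here reflects the spread among libraries, which may be technical. All 36 symbols were present, 35 had enough reads to be tested, and PRDX2 had 0 counts in every library.

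NRF2, the protein of NFE2L2, is a transcription factor that KEAP1 marks for destruction in unstressed cells. Oxidants and electrophiles disarm KEAP1, NRF2 then accumulates, and genes with an antioxidant response element in their regulatory DNA are transcribed. Glutathione and thioredoxin are the thiol systems that such genes feed, and both draw their electrons from NADPH. Cells that store iron in ferritin and import it through the transferrin receptor control the mRNAs of both through iron-responsive elements, hairpins in the untranslated regions that iron regulatory proteins bind when iron is scarce. Binding blocks translation of ferritin mRNA and stabilises transferrin receptor mRNA. In promyelocytic cells the peroxidase MPO uses hydrogen peroxide, the molecule that catalase, glutathione peroxidases and peroxiredoxins remove.

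The iron-responsive elements are shown because the clearest difference among the 36 genes was in TFRC, whose mRNA carries several. A match was a bulged C, 5 bases, the loop CAGTGN and 5 bases pairing with the 5 before the loop, with at least 4 of 5 pairs below the bulge, G with T included, read on the mRNA strand and outside the coding sequence of GENCODE 29 transcripts. Only FTH1, FTL and TFRC of the 36 members had one, and 18 of 19669 protein-coding genes did (0.0915%). The loop is in capitals, and positions are on GRCh38, a later build than the counts. A match is a description of the letters only, and the part of these elements in the mRNA levels was not tested.
FTH1, 5′ untranslated region, chr11:61967575-61967601, minus strand: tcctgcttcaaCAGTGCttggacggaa
FTL, 5′ untranslated region, chr19:48965336-48965362, plus strand: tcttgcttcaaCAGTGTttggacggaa
TFRC, 3′ untranslated region, chr3:196050980-196051006, minus strand: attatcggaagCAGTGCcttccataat
TFRC, 3′ untranslated region, chr3:196050576-196050602, minus strand: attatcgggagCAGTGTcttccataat
TFRC, 3′ untranslated region, chr3:196050511-196050537, minus strand: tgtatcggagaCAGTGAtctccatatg
TFRC, 3′ untranslated region, chr3:196050464-196050490, minus strand: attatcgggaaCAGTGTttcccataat

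Few of the antioxidant genes differed between SKI knockout and control, and the share that did was close to that of all genes. HMOX1, GSS and PRDX5 rose, KEAP1 and TFRC fell, and the other 30 tested members did not pass an adjusted p of 0.05 in edgeR's quasi-likelihood test. That made 5 of 35 members called (14.3%), against 11.8% of all 16340 tested genes. In the higher direction it was 3 of 35 members (8.57%) against 6.19% of all tested genes, and in the lower direction 2 of 35 (5.71%) against 5.63%. The median log2 fold change was 0.01 over the tested members and -0.01 over all tested genes. In 9 members (25.7%) every library of one group lay beyond the other group, 7 of them with the knockout above, against 32.2% of all tested genes. Without knockout replicate 1 or control replicate 3, edgeR called 0 members, against 6.09% and 4.45% of all tested genes. In these fits 10 and 7 members had an unadjusted edgeR p under 0.05. The share of all tested genes under that unadjusted threshold is not given here. Nothing about the members is therefore read from these counts or from the unadjusted counts by family below. Without control replicate 2 edgeR called 1, against 5.61% of all tested genes, and without control replicate 1 it called 3, against 8.09%. Leaving out knockout replicate 2 gave 7 called members, against 14.7% of all tested genes, and leaving out knockout replicate 3 gave 6, against 13.6%.

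**Figure D1:**
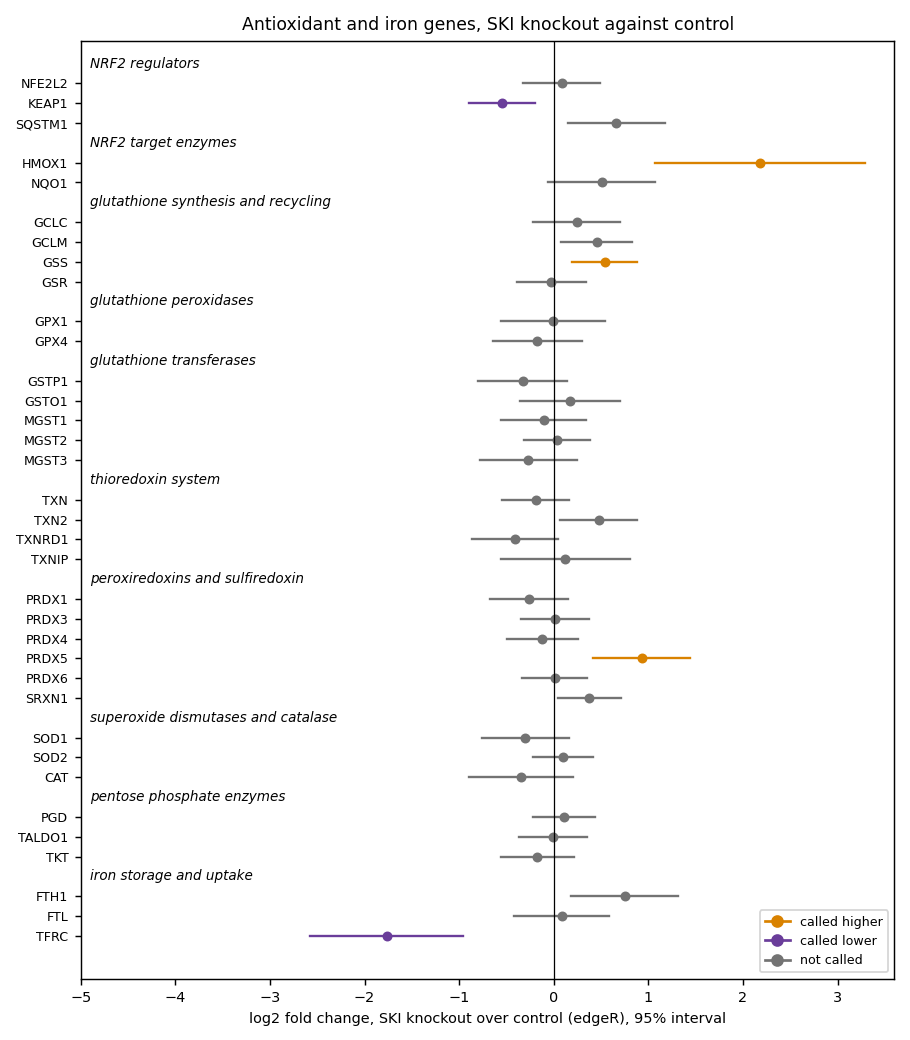
Log2 fold change of each tested member, SKI knockout over control, with its 95% interval from edgeR, grouped by role. HMOX1, GSS and PRDX5 (orange) lie above 0, KEAP1 and TFRC (purple) below, and most grey intervals span 0.

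The libraries held 47930276 to 58553247 counts per library, and 3 counts corresponded to 0.0509 to 0.0628 CPM (counts-per-million units on TMM-scaled library sizes). SKI mRNA stood at 59.6, 40.7 and 42.0 CPM in the knockout and at 63.9, 83.5 and 88.5 CPM in the control (log2 fold change -0.73, edgeR adjusted p = 0.0282). The summed level of 10 HL60 and promyelocyte markers was 3380 to 9480 CPM in knockout and 13000 to 15300 CPM in control libraries, most of it from MPO. Of these 10 markers 6 were called lower, 1 higher (CSF3R, log2 fold change 1.28, edgeR adjusted p = 0.000795) and 2 not called (MYB and SPI1). ELANE, with 0 to 4 counts, was not tested. The annotation behind the counts is not stated, so no limit on ELANE expression is drawn from them. In bulk RNA, fewer cells of a kind and less RNA per cell cannot be told apart. The 5 T and B cell markers summed to 2.05 to 5.87 CPM in knockout and 0.967 to 1.41 CPM in control libraries, mostly from CD79A. The 4 erythroid markers summed to 0.0414 CPM or less. Those 5 of stromal and epithelial cells summed to 0.166 to 0.325 CPM in the knockout and 0.153 to 0.293 CPM in the control. Knockout replicate 3 stood apart by gene length. Against the control mean, its median log2 CPM was 0.23 higher in the shortest of 5 equal classes of genes by length. In the longest class it was lower, at -0.30. In these classes knockout replicate 1 had -0.09 and 0.02, and knockout replicate 2 had 0.01 and 0.02. Control libraries also had trends, smaller than that of knockout replicate 3. They had 0.082 and -0.091 in control replicate 1, -0.022 and 0.025 in replicate 2, and -0.062 and 0.069 in replicate 3.

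Among the regulators of the pathway, KEAP1 fell while NFE2L2 did not pass the test. KEAP1, the adaptor that delivers NRF2 to a ubiquitin ligase, was measured at 57.0, 73.5 and 81.9 CPM in the knockout and at 104, 105 and 102 CPM in the control. The control libraries lay close together, above the highest knockout library. The log2 fold change was -0.55 (SE 0.16, edgeR adjusted p = 0.0454), a level 1.47-fold lower. KEAP1 lies on chromosome 19, where the median log2 fold change was -0.48 over the 694 genes with an average log2 CPM above 2, with 85.9% of them lower in the knockout. With each library centred on the median of each chromosome, KEAP1 was at -0.08 on the log2 scale (edgeR adjusted p = 0.776), and was not called. The call was also lost when any 1 library other than knockout replicate 3 was left out (log2 -0.40 to -0.57, edgeR adjusted p = 0.0660 to 0.150).

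NFE2L2, which encodes NRF2, had 43.5, 45.0 and 33.8 CPM in the knockout and 38.8, 46.3 and 30.5 CPM in the control. The ranges overlapped almost fully, and the log2 fold change was 0.08, with a 95% interval from -0.33 to 0.49. SQSTM1, the autophagy adaptor p62 that binds KEAP1, had 178, 105 and 228 CPM in the knockout and 112, 102 and 109 CPM in the control. Knockout replicates 1 and 3 were well above the control and replicate 2 lay inside its range. SQSTM1 did not pass (log2 fold change 0.66, edgeR adjusted p = 0.0908), but did without knockout replicate 2 (0.94, edgeR adjusted p = 0.00466). Exons of NFE2L2 and SQSTM1 overlap those of genes on the opposite strand in GENCODE 29. So do exons of NQO1, GCLC, MGST2, PRDX1, PRDX2, SOD2 and FTH1, and of CBR1, GSTZ1 and IDH1 among the called further genes described below. The sources used here do not give the strand setting of the counting.

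HMOX1 rose, at a level near the detection floor. HMOX1 encodes the inducible heme oxygenase, a textbook NRF2 target that opens the heme ring to release iron and biliverdin. It had 0.777, 0.352 and 0.915 CPM in the knockout, from 43, 17 and 48 counts, and 0.251, 0.119 and 0.0881 CPM in the control, from 12, 7 and 5 counts. The groups did not overlap, and the log2 fold change was 2.18 (SE 0.51, edgeR adjusted p = 0.0175), or 4.52-fold higher. The call ended without knockout replicate 1, control replicate 2 or control replicate 3 (log2 2.09, 2.03 and 1.90, edgeR adjusted p = 0.0740, 0.0821 and 0.104). NQO1, a quinone reductase that is the other classical NRF2 target listed, had 4.54, 5.77 and 8.19 CPM in the knockout and 4.67, 3.61 and 4.77 CPM in the control. Knockout replicate 1 fell within the control range, and NQO1 did not pass (log2 fold change 0.50, 95% interval -0.06 to 1.07, edgeR adjusted p = 0.237).

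**Figure D2:**
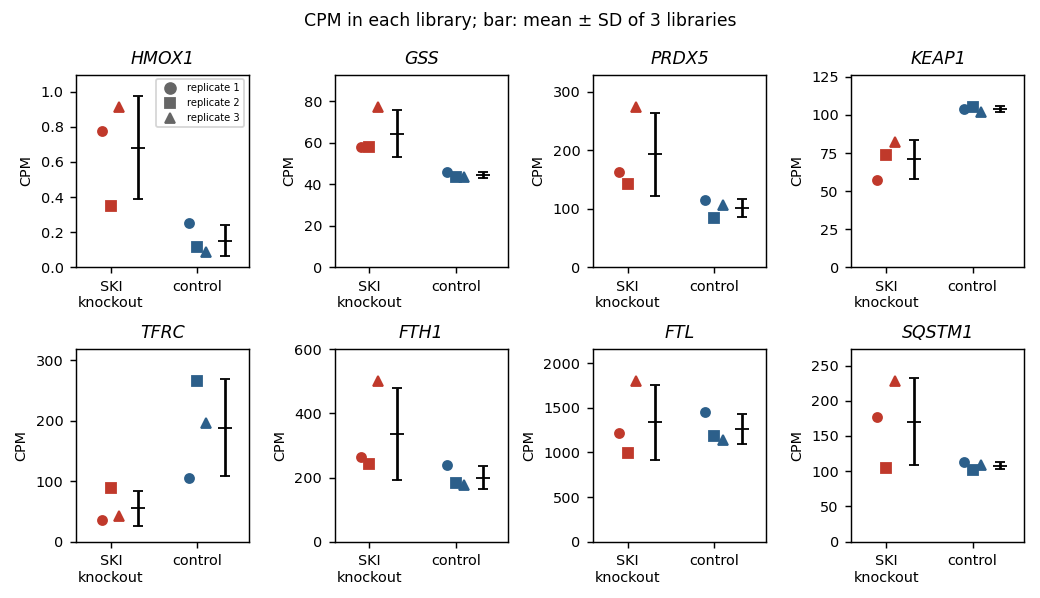
CPM in each of the 6 libraries for 8 genes, with SKI knockout left of control in each panel, a symbol per replicate, and the mean ± SD of 3 libraries beside the points. Groups do not overlap for HMOX1, GSS, PRDX5, KEAP1, TFRC and FTH1, and they overlap for FTL and SQSTM1.

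Of the 4 enzymes that make and recycle glutathione, GSS rose. GSS, glutathione synthetase, which joins glycine to gamma-glutamylcysteine, had 57.8, 58.2 and 77.4 CPM in the knockout and 46.2, 43.5 and 43.6 CPM in the control. Every knockout value was above every control value, and knockout replicate 3 was the highest. The log2 fold change was 0.54 (SE 0.16, edgeR adjusted p = 0.0484), or 1.45-fold higher. This adjusted p lay just under the threshold, and GSS kept its call in 7 of 15 alternatives, over all of which its log2 fold change lay between 0.41 and 0.63. It lost the call when any 1 library other than knockout replicate 2 was left out (edgeR adjusted p = 0.0642 to 0.171).

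GCLM, the modifier subunit of glutamate-cysteine ligase, the enzyme that limits the rate of the pathway, had 18.6, 15.1 and 14.4 CPM in the knockout and 11.65, 11.49 and 12.03 CPM in the control. Its groups did not overlap, yet it did not pass (log2 fold change 0.45, edgeR adjusted p = 0.117). GCLC, the catalytic subunit, had 39.9, 61.5 and 35.4 CPM in the knockout and 32.7, 42.8 and 40.2 CPM in the control, with overlap. GCLC lies on chromosome 6, where the median log2 fold change of 518 genes was 0.43, and its own was 0.24. GSR, glutathione reductase, which restores reduced glutathione with NADPH, averaged 55.1 ± 8.96 CPM in the knockout and 56.1 ± 6.09 CPM in the control (SD, n = 3), and the interval of its log2 fold change ran from -0.39 to 0.33.

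None of the 7 glutathione peroxidase and transferase genes passed the test in edgeR, DESeq2 or limma-voom, and 0 had an unadjusted p under 0.05 in edgeR. GPX1, the cytosolic peroxidase, had 71.6, 77.8 and 154 CPM in the knockout and 107, 93.2 and 104 CPM in the control. GPX4, which reduces lipid hydroperoxides in membranes, had 157, 158 and 275 CPM in the knockout and 242, 202 and 223 CPM in the control. GSTP1, the pi-class transferase, had 180, 201 and 329 CPM in the knockout and 314, 302 and 276 CPM in the control. In all 3 of these genes, knockout replicates 1 and 2 were below every control library and knockout replicate 3 was above every one. Without knockout replicate 3 both GPX4 (log2 -0.47, edgeR adjusted p = 0.0464) and GSTP1 (-0.62, edgeR adjusted p = 0.0130) were called lower, against -0.17 and -0.33 with it. GPX4 lies on chromosome 19, and with chromosome centring its log2 fold change was 0.28. GSTO1 also had its highest value in knockout replicate 3, at 195 CPM against 104 CPM in each of the other knockout libraries and 104 to 142 CPM in the control. The membrane-bound transferases MGST1, MGST2 and MGST3 had log2 fold changes of -0.11, 0.03 and -0.27, with overlapping groups.

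The 15 members in the shortest of those length classes (53 to 2749 bases) lay mostly above the control mean in knockout replicate 3 only. Against the control mean, 12 of these 15 were higher in knockout replicate 3, with a median deviation of 0.31 on the log2 scale, but 5 were higher in replicate 1 (median -0.19) and 7 in replicate 2 (median -0.01). The part of gene length in these values was not tested. With the length trend of each library removed, an alternative added once the values had been seen, the 5 called members kept their calls and no other member was called.

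**Figure D3:**
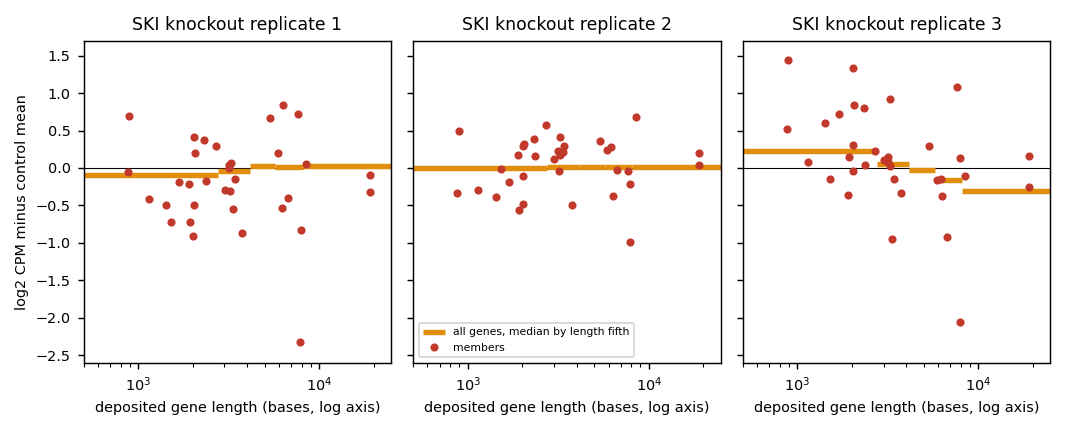
Log2 CPM of each member minus its control mean against deposited gene length (log axis) in the 3 SKI knockout libraries, with orange bars for the median of all genes with an average log2 CPM above 2 in each of the 5 length classes. HMOX1 is left out. From short to long genes the bars step down, 0.23 to -0.30, in replicate 3, and lie between -0.09 and 0.03 in replicates 1 and 2.

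In the thioredoxin system none of the 4 genes passed in edgeR, DESeq2 or limma-voom, and 1, TXN2, had an unadjusted p under 0.05 in edgeR. TXN2, the mitochondrial thioredoxin, had 195, 212 and 304 CPM in the knockout and 186, 159 and 166 CPM in the control, without overlap. Its log2 fold change was 0.47 (edgeR adjusted p = 0.122), beside a median of 0.23 for the 269 genes of chromosome 22, on which it lies. TXN, the cytosolic thioredoxin, had 93.1, 101 and 131 CPM in the knockout and 132, 118 and 122 CPM in the control. TXNRD1, the selenoprotein reductase that restores cytosolic thioredoxin, had 126, 164 and 88.5 CPM in the knockout and 152, 186 and 165 CPM in the control. Only knockout replicate 2 reached the range of the control, and the log2 fold change was -0.41 (95% interval -0.86 to 0.04). TXNIP, an inhibitor of thioredoxin and of glucose uptake, was the most variable of the 4, at 474, 203 and 203 CPM in the knockout and 346, 203 and 260 CPM in the control.

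Among the peroxiredoxins, thiol enzymes that reduce hydrogen peroxide, PRDX5 rose and the 4 others tested did not pass. PRDX5, found in mitochondria, peroxisomes and cytosol, had 164, 143 and 275 CPM in the knockout and 115, 84.3 and 106 CPM in the control. The groups did not overlap, and knockout replicate 3 was well above the rest. The log2 fold change was 0.93 (SE 0.23, edgeR adjusted p = 0.0247), or 1.90-fold higher. PRDX5 is among the shortest members, with a deposited length of 893 bases. Without knockout replicate 3 it was still called, at 0.61 on the log2 scale (edgeR adjusted p = 0.0200). The call was lost without knockout replicate 1 (1.06, edgeR adjusted p = 0.0501), control replicate 2 (0.81, 0.115) or control replicate 3 (0.96, 0.0964).

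PRDX3, the mitochondrial peroxiredoxin, and PRDX6 had log2 fold changes of 0.01 each, with intervals from -0.34 to 0.37 and from -0.33 to 0.35. PRDX1 and PRDX4 were at -0.26 and -0.12. SRXN1, the sulfiredoxin that repairs over-oxidised peroxiredoxins and an NRF2 target, had 44.8, 54.4 and 42.6 CPM in the knockout and 38.1, 34.2 and 37.0 CPM in the control. Its groups did not overlap, but it did not pass (log2 fold change 0.38, edgeR adjusted p = 0.139). PRDX2 was at 0 counts in all libraries, and in GENCODE 29 its exons overlap those of the opposite-strand gene AC018761.2. How the authors' counting treated such overlaps is not stated, so the 0 may come from counting, and no limit on PRDX2 expression is drawn from it.

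The superoxide dismutases and catalase did not pass in edgeR, DESeq2 or limma-voom. SOD1, the cytosolic dismutase, had 90.4, 157 and 165 CPM in the knockout and 177, 172 and 159 CPM in the control. SOD2, the mitochondrial one, averaged 73.2 ± 7.89 CPM in the knockout and 68.5 ± 3.85 CPM in the control (SD, n = 3), a log2 fold change of 0.10 on chromosome 6, whose median was 0.43. CAT, catalase, which splits hydrogen peroxide in peroxisomes, had 254, 429 and 192 CPM in the knockout and 379, 397 and 338 CPM in the control. Knockout replicate 2 was above the control and the other knockout libraries below it. Without knockout replicate 2, CAT was called lower (log2 -0.71, edgeR adjusted p = 0.0277), against -0.35 with it. MPO, the heme peroxidase of azurophil granules, had its libraries in the same order as CAT within each group, but every knockout library lay below the control, with 3472, 8538 and 2562 CPM in the knockout and 12640, 13990 and 11630 CPM in the control (log2 fold change -1.39, edgeR adjusted p = 0.0365). Of the marker list above, MYB and CSF3R also had that order in the knockout. CTSG, AZU1, PRTN3, CD33, CEBPE and SPI1 did not. The part of cell state in the CAT values was not tested.

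The pentose phosphate genes, whose products supply NADPH to both thiol systems, differed little. PGD, which makes NADPH directly, averaged 386 ± 31.0 CPM in the knockout and 359.5 ± 13.0 CPM in the control (SD, n = 3). TALDO1, transaldolase, averaged 282 ± 43.5 CPM in the knockout and 284 ± 22.5 CPM in the control. TKT, transketolase, averaged 1035 ± 142 CPM in the knockout and 1169 ± 72.1 CPM in the control. Their log2 fold changes were 0.10, -0.01 and -0.17, and the intervals ran from -0.22 to 0.43 for PGD, from -0.37 to 0.35 for TALDO1 and from -0.56 to 0.21 for TKT. A 2-fold change lay outside the interval of all 3 genes.

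The iron genes held the largest decrease. TFRC, the transferrin receptor that brings iron into the cell, had 35.1, 88.7 and 42.3 CPM in the knockout and 105, 265 and 195 CPM in the control. The groups did not overlap, although knockout replicate 2 came close to control replicate 1. The log2 fold change was -1.77 (SE 0.37, edgeR adjusted p = 0.0102), or 3.41-fold lower. The call held in 13 of 15 alternatives and was lost without knockout replicate 1 (log2 -1.52, edgeR adjusted p = 0.0612) and without control replicate 3 (-1.75, edgeR adjusted p = 0.0535). Chromosome 3, where TFRC lies, had a median of 0.01, and chromosome centring left it at -1.76 (edgeR adjusted p = 0.0120).

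FTH1, the ferritin heavy chain with its ferroxidase site, had 265, 243 and 501 CPM in the knockout and 241, 184 and 175 CPM in the control. The groups did not overlap, but the lowest knockout and the highest control value lay close together, and knockout replicate 3 stood far above. FTH1 did not pass in edgeR (log2 fold change 0.75, adjusted p = 0.0831), whereas DESeq2's Wald test called it (0.76, adjusted p = 0.0344). Without knockout replicate 3 its log2 fold change was 0.37 (edgeR adjusted p = 0.160), and without knockout replicate 2 it was called at 0.96 (edgeR adjusted p = 0.0279). FTL, the ferritin light chain, had 1213, 993 and 1801 CPM in the knockout and 1457, 1187 and 1142 CPM in the control, and its log2 fold change was 0.08 (95% interval -0.42 to 0.59). FTL lies on chromosome 19, with a median of -0.48. The table also lists 25 FTH1 and 16 FTL pseudogenes, which together held 0.886% to 1.11% of the counts of FTH1 and 0.0209% to 0.0388% of those of FTL. Reads that match a gene and its copies equally leave both levels uncertain, since the sources used here do not say how they were counted.

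Per kilobase of deposited gene length, FTL was the most abundant member, at 1522 ± 476 CPM per kilobase in the knockout and 1437 ± 194 in the control (SD, n = 3). Next in the control came GSTP1 at 154 ± 9.85, PRDX1 at 147 ± 11.5, PRDX5 at 114 ± 17.7 and PGD at 113 ± 4.08 CPM per kilobase. In that order GSTP1 and PRDX1, and PRDX5 and PGD, differed by less than their SDs, and PRDX1 and PRDX5 by more. In the knockout PRDX5, at 217 ± 79.4, and FTH1, at 166 ± 70.5 CPM per kilobase, took the places after FTL, with spreads that overlapped those of the genes behind them. At the low end were GCLM (2.98 ± 0.418 CPM per kilobase in the knockout and 2.18 ± 0.0516 in the control), NQO1 (1.90 ± 0.572 in the knockout and 1.34 ± 0.197 in the control) and HMOX1 (0.283 ± 0.122 in the knockout and 0.0635 ± 0.0360 in the control). The classical NRF2 target enzymes NQO1 and HMOX1 were the least abundant members with reads. Levels of TKT and SOD2 are set by deposited lengths of 19014 and 18985 bases, and a shorter main transcript would give a higher level per kilobase.

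**Figure D4:**
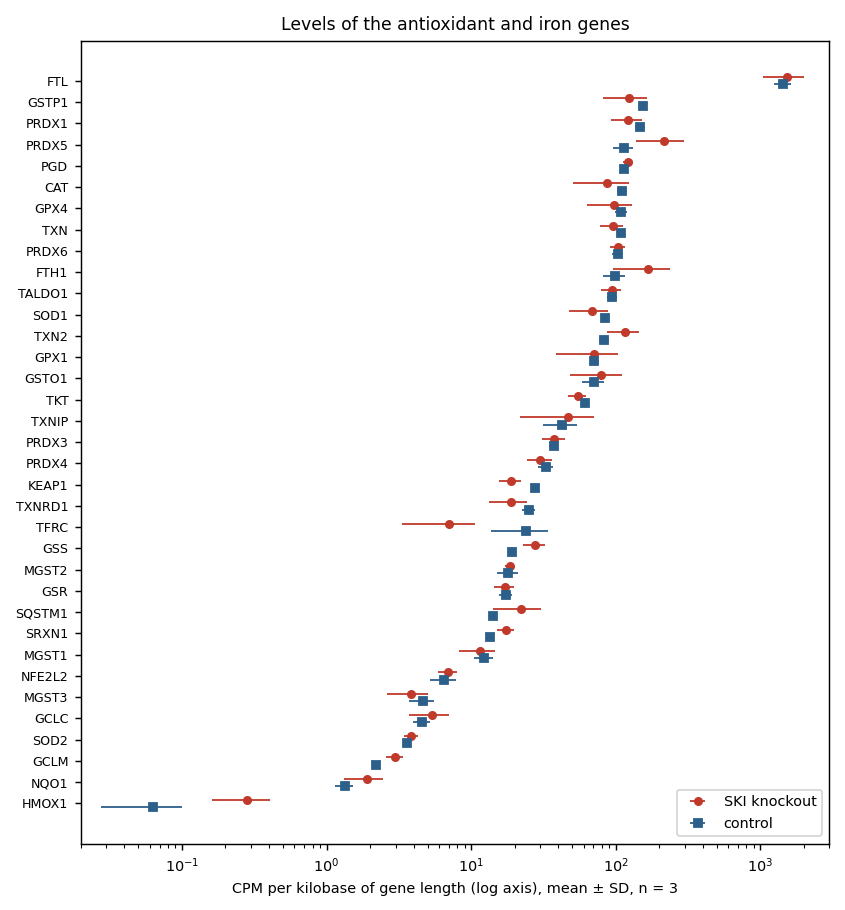
CPM per kilobase of deposited gene length (log axis, mean ± SD, n = 3) for the 35 members with reads, SKI knockout above control, ordered by the control. FTL lies far above the rest and HMOX1 is lowest.

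The knockout libraries spread more than the control libraries. Over the 34 members with an average log2 CPM above 2, the median SD of log2 CPM was 0.39 in the knockout and 0.12 in the control, against 0.24 in the knockout and 0.15 in the control over all such genes. The SD was larger in the knockout for 32 of the 34 members, against 74% of all such genes. In the authors' deposited table, 7 members had an adjusted p under 0.05, against 14.4% of the 18100 genes with one there. These were the 5 genes called here, with the same sign, and also SQSTM1 (log2 fold change 0.62, adjusted p = 0.0496) and FTH1 (0.70, adjusted p = 0.0317).

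The core of the antioxidant response element, TGACNNNGC, was sought on both strands of the RefSeq promoter windows, from 250 bases before to 50 after each start, on GRCh38.p14. Windows were found for 27 of the 36 members, and 7 of these genes held the core in at least 1 window (25.9%), against 16.1% of all 27305 genes counted the same way. Counted by window, the core was in 8 of the members' 41 windows (19.5%), against 13.3% of all 35116, since members had 1.52 windows a gene and all genes 1.29. The 7 were GCLM, GSTO1, GSTP1, KEAP1, MGST1, PGD and TXNRD1, of which only KEAP1 was called. Of the other called members, HMOX1 and GSS had no window, so whether they hold the core was not examined. Sequence outside the windows was not searched, so a gene without a match may hold the core elsewhere. The E-box CACGTG was in 3 of the 41 windows (7.32%, in GPX1, PRDX3 and PRDX4) against 7.26% of all windows. Of the further genes described below, 26 of 99 held the core in at least 1 window (26.3%). Those called were IDH1, MAFF and ME1, which rose, and CBR1 and PIR, which fell. The windows shown are those of KEAP1, the called member, of GCLM and GSTP1, which have groups without overlap or a call once 1 library is left out, and of IDH1, MAFF, ME1 and CBR1, the called further genes with a core before the start. Capitals mark the core on either strand, and a match is a description of the letters only.
KEAP1, chr19:10502783-10502836, minus strand: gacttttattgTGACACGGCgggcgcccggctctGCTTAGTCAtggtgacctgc
GCLM, chr1:93909445-93909475, minus strand: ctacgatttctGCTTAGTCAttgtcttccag
GSTP1, chr11:67583735-67583765, plus strand: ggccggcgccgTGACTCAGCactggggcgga
MAFF, chr22:38201861-38201891, plus strand: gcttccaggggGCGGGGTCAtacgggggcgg
CBR1, chr21:36069854-36069884, plus strand: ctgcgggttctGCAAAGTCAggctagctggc
ME1, chr6:83431169-83431199, minus strand: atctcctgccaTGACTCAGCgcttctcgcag
IDH1, chr2:208255195-208255225, minus strand: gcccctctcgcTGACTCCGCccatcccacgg

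A wider list of 118 further genes of the same pathways had 100 tested members, of which 10 rose, 3 fell and 87 did not pass. Those 13 called made 13.0% of the 100, against 11.8% of all tested genes. By direction it was 10% higher against 6.19% of all tested genes, and 3% lower against 5.63%. The median log2 fold change of all 100 was 0.05. Of the heme breakdown enzymes that act after heme oxygenase, both biliverdin reductases rose. BLVRA averaged 9.23 ± 4.09 CPM in the knockout and 2.33 ± 0.956 CPM in the control (SD, n = 3, log2 fold change 1.99, edgeR adjusted p = 0.00673), and BLVRB 13.3 ± 6.15 CPM in the knockout and 4.16 ± 2.08 CPM in the control (1.68, edgeR adjusted p = 0.0164). BLVRB lost its call without knockout replicate 1, control replicate 2 or control replicate 3 (edgeR adjusted p = 0.0584, 0.0624 and 0.0942). MAFF, a small MAF protein that pairs with NRF2, averaged 15.1 ± 2.83 CPM in the knockout and 6.523 ± 1.176 CPM in the control (SD, n = 3, log2 fold change 1.21, edgeR adjusted p = 0.00479).

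**Figure D5:**
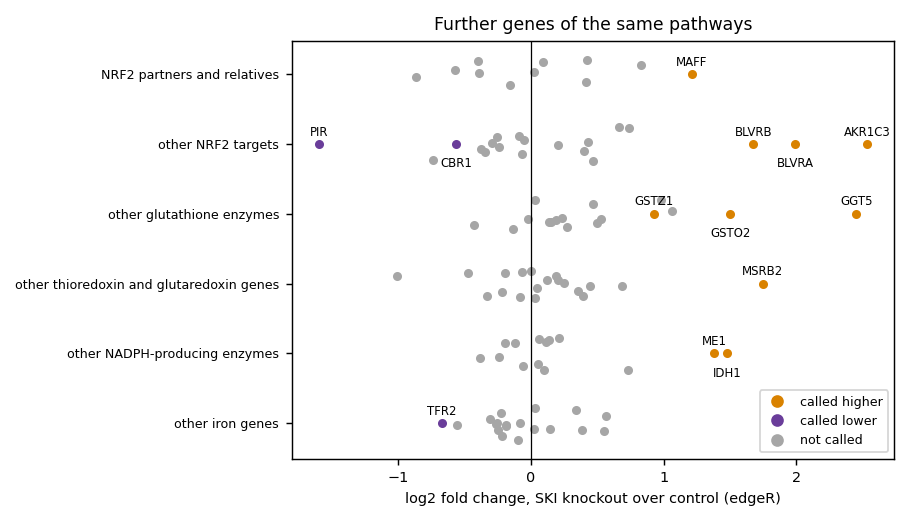
Log2 fold changes, SKI knockout over control, of the 100 tested genes of the wider list, by role. The 10 called higher (orange) and the 3 called lower (purple) are named, and grey points did not pass.

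Among the other NADPH-producing enzymes, 2 of 14 rose (14.3%), against 6.19% of all tested genes. ME1, the cytosolic malic enzyme, averaged 15.7 ± 3.34 CPM in the knockout and 6.04 ± 0.229 CPM in the control (SD, n = 3, log2 fold change 1.38, edgeR adjusted p = 0.00188), on chromosome 6. IDH1, the cytosolic isocitrate dehydrogenase, averaged 70.1 ± 21.6 CPM in the knockout and 25.2 ± 6.11 CPM in the control (SD, n = 3, 1.48, edgeR adjusted p = 0.00366). Of 17 other glutathione enzymes 3 rose (17.6%, against the same 6.19%). GGT5, a gamma-glutamyl transferase family member, was the most changed of them, at 11.1 ± 3.39 CPM in the knockout and 2.03 ± 0.699 CPM in the control (SD, n = 3, log2 fold change 2.45, edgeR adjusted p = 0.000972). GSTZ1, at 12.8 ± 3.08 CPM in the knockout and 6.73 ± 0.413 CPM in the control, had a log2 fold change of 0.93 (edgeR adjusted p = 0.0154), and GSTO2, at 0.927 ± 0.0809 CPM in the knockout and 0.328 ± 0.0529 CPM in the control, was 2.83-fold higher (0.0140, SD, n = 3). Both lost their calls without control replicate 2 (edgeR adjusted p = 0.0681 for GSTZ1 and 0.0725 for GSTO2) or control replicate 3 (0.0730 and 0.0670).

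Of the 20 other NRF2 targets tested, 3 rose (15%) and 2 fell (10%), against 6.19% and 5.63% of all tested genes. Besides both biliverdin reductases, AKR1C3, an aldo-keto reductase, rose at 1.05 ± 0.560 CPM in the knockout against 0.182 ± 0.0605 CPM in the control (SD, n = 3, log2 fold change 2.53, edgeR adjusted p = 0.00673), a call lost without control replicate 3 (adjusted p = 0.0511). CBR1, a carbonyl reductase, and PIR, pirin, fell, with log2 fold changes of -0.56 (edgeR adjusted p = 0.0348) and -1.60 (0.0289). PIR had few reads, with 7, 11 and 14 counts in the knockout and 21, 41 and 42 in the control. PIR lost its call without knockout replicate 1, control replicate 2 or control replicate 3 (edgeR adjusted p = 0.121, 0.108 and 0.133), and CBR1 without any 1 library other than knockout replicate 3 (0.0587 to 0.131). SLC7A11, the cystine importer, did not pass (0.21, 95% interval -0.20 to 0.61), nor did its partner SLC3A2 (0.43, edgeR adjusted p = 0.120). Of 19 other iron genes 1 fell (5.26%, against 5.63% of all tested genes). It was TFR2, a relative of TFRC (log2 fold change -0.67, edgeR adjusted p = 0.0292). TFR2 had 17.4, 20.1 and 16.3 CPM in the knockout and 24.9, 26.8 and 33.9 CPM in the control. Its call ended with library totals as the scale (-0.65, edgeR adjusted p = 0.0594) and without knockout replicate 1, control replicate 2 or control replicate 3 (adjusted p = 0.0979, 0.0725 and 0.146). Of 19 other thioredoxin and glutaredoxin genes 1 rose (5.26%, against 6.19% of all tested genes). It was the methionine sulfoxide reductase gene MSRB2, at 1.75 on the log2 scale (edgeR adjusted p = 0.0447). MSRB2, named after its values were seen, lost its call without knockout replicate 3 (log2 0.98, edgeR adjusted p = 0.104) or any 1 control library (0.0575 to 0.150).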

How the data were processed

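mRNA libraries were made with a stranded kit, per the labels. Per the submitters' processing notes, the tools were bcl2fastq, TopHat2, Subread, featureCounts, DESeq and DESeq2, with hg19 and GRCh37; their versions, the annotation and the strand setting were not stated. Raw counts per gene, with gene lengths, were deposited by the authors and were the input of every test. A second table deposited by the authors holds scaled counts (signal), log2 fold changes, test scores and p-values.

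Genes kept by filterByExpr were TMM-scaled and tested by the quasi-likelihood method of edgeR (version 4.0.16, beside limma 3.58.1 and DESeq2 1.42.0 in R 4.3.3), SKI knockout against control, 3 libraries each, with group as the only term. Benjamini-Hochberg adjustment covered all 16340 tested genes, at 0.05. Standard errors and 95% intervals came from the F statistic, and log2 CPM used a prior count of 2. Chromosomes were looked up by symbol (84.7% of tested genes). Members, the wider list and the alternatives were chosen with earlier results of these data known. All members could be named, and from the wider list up to 12 called genes with the smallest p. The code was tested on simulated data.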

Additional observations from a re-analysis of the deposited data

How the results depend on the processing

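Depth limited HMOX1, which had 5 to 12 counts in control libraries. It also limited AKR1C3 (8 to 12 counts in control libraries), GSTO2 (16 to 19 there) and PIR (7 to 14 in knockout libraries). Over all genes 740 to 2488 were called with 1 library left out, 4.45% to 14.7% of those tested. Chromosome centring called 1198 (8.65%), the replicate block 12.9%, no filter 9.5% and DESeq2's Wald test 16.1%, against 11.8% in the main fit. Members called higher numbered 5 with no filter and 0 to 5 with 1 library left out. Members called lower numbered 1 with the replicate block, 1 with chromosome centring and 0 to 4 with 1 library left out. Of the wider list, 17 were called higher with no filter, 16 with DESeq2's Wald test and 6 to 15 with 1 library left out, and 5 were called lower with no filter and 0 to 5 with 1 library left out. The cause was not tested. Of the same-numbered libraries, those numbered 2 deviated together and the others did not (correlations of deviations 0.422 for replicate 2, -0.169 for replicate 1 and -0.089 for replicate 3), so the numbers were not taken as pairs. With the replicate block 2107 genes were called, and KEAP1 (-0.57, edgeR adjusted p = 0.0512) and GSS (0.52, 0.0693) were not.

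Signs turned only for members that did not pass. With chromosome centring, log2 fold changes were -0.20 for GCLC, 0.041 for GPX1, 0.28 for GPX4, 0.048 for TXN, -0.001 for PRDX6 and -0.35 for SOD2. GPX1 was at 0.003 with DESeq2 size factors or its Wald test and 0.019 with no filter. PRDX3 was at -0.001 with limma-voom or the replicate block, and PRDX6 at -0.029 with the length trend removed. TALDO1 was at 0.009 with library totals and 0.015 with no filter. With 1 library left out, the ranges were -0.064 to 0.24 for NFE2L2, -0.01 to 0.41 for GCLC, -0.11 to 0.11 for GSR, -0.42 to 0.21 for GPX1, -0.18 to 0.35 for GSTO1, -0.32 to 0.081 for MGST1, -0.065 to 0.17 for MGST2, -0.39 to 0.36 for TXNIP, -0.12 to 0.10 for PRDX3, -0.27 to 0.006 for PRDX4, -0.062 to 0.11 for PRDX6, -0.076 to 0.13 for TALDO1 and -0.17 to 0.28 for FTL.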
